A study of Mus musculus with 91 samples.

Results

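Regulatory T cells (Tregs) that met an IL-2 fusion protein for a second time were set against Tregs that met it once. The comparison took the 7 libraries of the restimulation table that ended in a fusion injection: 4 labelled as fusion followed by a second fusion (repeated) and 3 labelled as PBS followed by a single fusion (single). They are 7 of the 91 samples of the series, which stand for 75 libraries. All were assigned to groups by their labels, with earlier results of these data known. As a reference, 3 libraries from animals given PBS on both occasions were used.

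Every group came from C57/BL6 mice carrying a red fluorescent reporter of Foxp3, and cells sorted from spleen as Tregs were collected 1.5 h after the last injection. The fusion protein (FP) joins mouse IL-2 to CD25, the alpha chain of its own receptor, and was given at 20 µg, with 100 µL of PBS as the control. The labels do not give the interval between the injections, the age or sex of the mice, or whether replicates were separate animals. The p-values therefore measure only the spread between these samples, which may be technical.

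IL-2 binds a receptor of CD25 (Il2ra), CD122 (Il2rb) and the common gamma chain, and JAK kinases then activate the transcription factor STAT5. Tregs keep CD25 high and depend on this signal. STAT5 raises its own feedback inhibitors of the SOCS family, among them Cish, within hours. Tregs that have been activated can turn into effector Tregs, which carry receptors such as KLRG1 and the IL-33 receptor ST2 and make IL-10, amphiregulin or granzyme B.

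One library went against its label. Of the IL-2 and STAT5 target genes on a list of 32, 16 were higher with FP than with PBS at 1.5 h in an independent set of libraries of the series. The library labelled single 1 exceeded every PBS library in 3 of these 16 genes, while single 2 and single 3 each did so in 15, and the repeated libraries in 14 or 15. The median log2 ratio of the 16 genes to the PBS mean was -0.075 in single 1, 1.599 and 1.48 in single 2 and 3, and 1.33 to 1.796 in the repeated libraries. Il2ra, the CD25 gene, stood at 566, 1785 and 1708 CPM (read counts scaled to library size with TMM factors) in single 1 to 3 and at 569 to 639 in PBS. In some genes the library did resemble its group. The immediate early gene Fos was at 18.9, 18.2 and 19.3 CPM in single 1 to 3 against 65.5 to 85.6 in PBS. Fosb, another such gene, was at 8.56, 5.54 and 5.99 CPM against 67.6 to 91.1. Calls described below are given with and without the library labelled single 1.

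**Figure D1:**
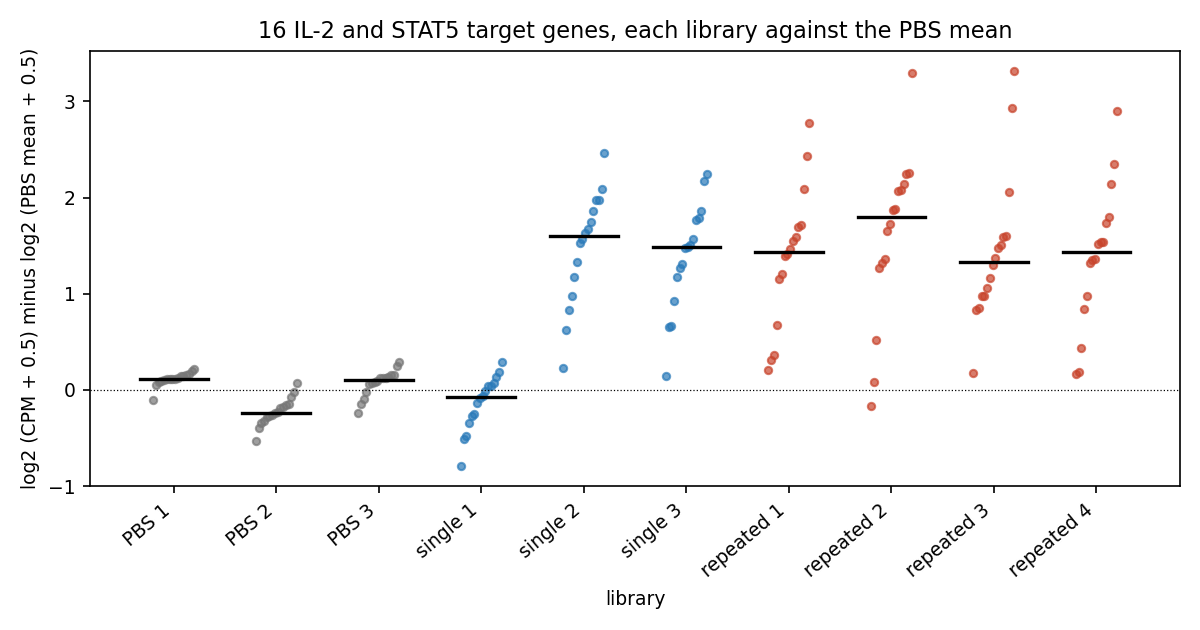
Log2 ratio of 16 IL-2 and STAT5 target genes to the mean of the PBS libraries (points are genes, bars are medians), with 0.5 CPM added to each level. The library labelled single 1 has a median of -0.075 and lies among the PBS libraries, whereas single 2 and 3 lie among the repeated libraries.

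Library totals ran from 28965494 to 46108114 reads, and the biological coefficient of variation shared by all genes was 27.0%. The leading component of the 10 libraries held 53.1% of the variance and crossed the groups: repeated 2, repeated 4 and PBS 3 lay together at one end. The same 3 libraries were low in RNA encoded by mitochondrial DNA, at 4268, 5307 and 5637 CPM, against 6612 to 10292 in the other 7. The Treg markers were present in all libraries: Foxp3 ranged from 664 to 937 CPM in repeated, 568 to 852 in single and 521 to 605 in PBS libraries. The repeated and single groups overlapped in Foxp3, with a log2 difference of 0.054 (95% interval -0.32 to 0.43), or -0.11 (-0.46 to 0.25) without single 1.

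A set of effector genes, led by granzyme B, Klrg1, Il10 and Il1rl1, was higher after repeated than after single injection. Ccr6 and a group of low genes were lower. No group received FP followed by PBS. A lasting effect of the first injection and an effect of the second therefore cannot be told apart. Of 17953 genes tested, 105 (0.585%) passed an adjusted p of 0.01 (Benjamini-Hochberg over all genes, edgeR quasi-likelihood F test), 79 of them higher (0.44%) and 26 lower (0.145%) after repeated FP. The 105 genes did not overlap between the 4 repeated and the 3 single libraries. Over all genes, 8.24% were non-overlapping and higher and 8.59% non-overlapping and lower. At least 2-fold changes were found for 75 of the 79 and 24 of the 26.

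The number of calls depended on single libraries. Without single 1, 19 genes were called (0.106%), 14 higher (0.078%) and 5 lower (0.0279%), and 17 of them were among the 105. All 105 kept their direction without it, and all 105 had an adjusted p below 0.05. Leaving out single 2 or single 3 left 4 and 8 calls, and leaving out repeated 1, 2 or 4 left 21, 39 and 17. Without PBS 1 there were 49. With repeated 2, repeated 4 and PBS 3 removed together, an alternative chosen after seeing the data, 14 genes were called, all higher, of which 11 were among the 105. DESeq2, the tool the study names, called 547 genes, all 105 included. The 30 called genes chosen by the naming rule kept their direction in every alternative run.

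**Figure D2:**
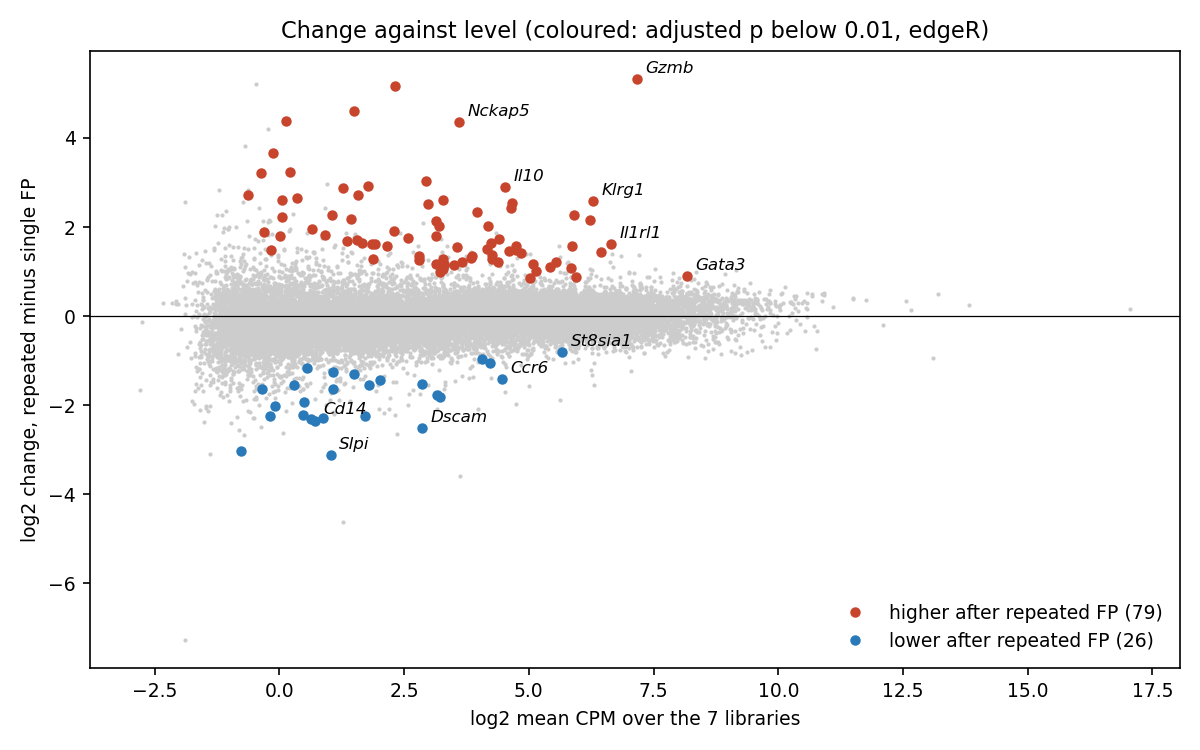
Log2 change, repeated minus single FP, against the log2 mean CPM of the 7 libraries for the 17953 genes tested. The 79 genes called higher (red) and the 26 called lower (blue) are marked, with Gzmb at 5.33 as the largest change among genes of at least 5 CPM.

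The largest change by name was that of Gzmb (granzyme B, a protease that cytotoxic lymphocytes store in granules), on the minus strand at chr14:56258838-56262260 of GRCm38. It measured 289.8, 240.0, 182 and 277 CPM in repeated libraries 1 to 4, 5.92, 6.36 and 6.18 in single 1 to 3 and 7.50, 3.02 and 7.50 in PBS 1 to 3. Every repeated library was far above every other, and the single libraries lay within the PBS range. The log2 change, given here and below ± its standard error, was 5.33 ± 0.349 with all libraries, at an edgeR adjusted p of 0.000235, and 5.30 without single 1, at 0.00264. The first value is a 40.2-fold difference. Gzmc, a neighbouring granzyme gene, followed at a lower level: 5.67, 4.95, 3.27 and 4.43 CPM in the repeated and 0.693, 0.638 and 0.737 in the single libraries. Its log2 change was 2.73 ± 0.306 with all libraries, at an edgeR adjusted p of 0.00295, and 2.73 without single 1, at 0.018. Granzyme genes are related in sequence, so some reads may fall to either. The share of such reads was not measured.

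Of the 12 cytotoxic granule genes measured, 3 rose, beside 0.44% of all genes. None fell and 9 did not pass, and without single 1 only Gzmb was called. The third was Fasl, the ligand of the death receptor Fas, at 13.4, 14.9, 11.7 and 11.3 CPM after repeated and 5.88, 5.46 and 6.02 after single FP, a log2 change of 1.15 ± 0.162 with all libraries, at an edgeR adjusted p of 0.00748, and 1.16 without single 1, at 0.0348. Nkg7, a granule membrane protein, did not pass: the repeated libraries were at 30.2, 40.8, 15.7 and 31.5 and the single ones at 8.65, 8.07 and 7.40 CPM, without overlap (log2 1.88, adjusted p = 0.0146). The pore former Prf1 was at 6.97 to 11.0 against 6.21 to 8.51 CPM, and its groups overlapped. The list's median change was 0.35 (0.49 without single 1), beside -0.0077 over all genes tested.

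Promoter sequence is shown for Gzmb and Ccr6 because they were the genes of the naming rule, one higher and one lower, whose upstream window held a searched motif. The windows cover 250 bases before the RefSeq start (build GRCm38.p6), chr14:56262335-56262584 on the minus strand for Gzmb and chr17:8235793-8236042 on the plus strand for Ccr6, written 5′ to 3′, with motif matches in capitals:
Gzmb: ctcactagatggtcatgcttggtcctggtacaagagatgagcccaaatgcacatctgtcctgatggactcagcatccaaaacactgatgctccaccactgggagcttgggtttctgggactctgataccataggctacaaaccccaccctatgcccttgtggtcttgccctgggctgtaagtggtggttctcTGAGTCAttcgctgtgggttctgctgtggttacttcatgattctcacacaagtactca
Ccr6: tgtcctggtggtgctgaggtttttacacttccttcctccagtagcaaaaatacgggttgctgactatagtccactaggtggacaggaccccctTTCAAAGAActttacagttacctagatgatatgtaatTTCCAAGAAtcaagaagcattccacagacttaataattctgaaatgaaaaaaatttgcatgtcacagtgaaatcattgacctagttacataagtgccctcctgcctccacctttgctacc
The searched motifs were TTCNNNGAA, the form bound by STAT5, and TGANTCA, the form bound by AP-1 dimers of Fos and Jun. Both read the same on either strand. Gzmb holds TGAGTCA from 58 to 52 bases before its start, and Ccr6 holds TTCAAAGAA from 157 to 149 and TTCCAAGAA from 120 to 112 bases before its start.

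Windows were matched by symbol for 56 of the 79 higher genes, 22 of the 26 lower genes and 10690 of the genes tested. TTCNNNGAA stood in 2 of the 56 (3.57%), 3 of the 22 (13.6%) and 776 of the 10690 (7.26%). TGANTCA stood in 5 of the 56 (8.93%), in none of the 22 and in 566 of the 10690 (5.29%). These matches describe letters in a window and say nothing about occupancy. The higher genes with TGANTCA were Apobr, F2r, Gm33104, Gzmb and Sh3tc1, and the lower genes with TTCNNNGAA were Ccr6, Gm16894 and Slc1a3.

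Effector Treg genes held more calls than any other list. Of 31 measured, 9 rose, none fell and 22 did not pass, beside 0.44% of all genes called higher and 0.145% lower. The median log2 change was 0.90 (1.02 without single 1), beside -0.0077 over all genes. The 9 called with all libraries included Gzmb, Klrg1, Il1rl1, Gata3, Il10, Areg, S100a4 and S100a6. Without single 1, 4 of the 31 were called higher, among them Gzmb, Klrg1 and Il10, beside 0.078% of all genes. The median change of the list was 0.79 for repeated FP against PBS and -0.14 for single FP against PBS, or -0.38 for the latter without single 1. These 2 comparisons share libraries with the first and are set beside it as values only.

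Klrg1, an inhibitory receptor of differentiated lymphocytes (chr6:122270596-122282882, minus strand), was at 142, 109, 101 and 132 CPM after repeated FP, 24.2, 19.1 and 17.6 after single FP and 26.6, 31.1 and 46.1 after PBS. All repeated libraries were above all others, and the single libraries were below the PBS ones. The log2 change was 2.58 ± 0.224 with all libraries, at an edgeR adjusted p of 0.000955, and 2.72 without single 1, at 0.00466. Il1rl1, which encodes ST2, the receptor of the alarmin IL-33 (chr1:40429570-40465415, plus strand), measured 188, 114, 137 and 123 CPM against 47.3, 45.2 and 46.0 in single and 28.8, 42.2 and 42.6 in PBS libraries. Single 1 to 3 were nearly equal here, and the repeated libraries did not overlap them (log2 1.61 ± 0.201 with all libraries, at an edgeR adjusted p of 0.00428, and 1.63 without single 1, at 0.0254).

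Among secreted factors, the suppressive cytokine Il10 (chr1:131019845-131024974, plus strand) was at 37.4, 39.6, 25.7 and 42.8 CPM in repeated, 8.33, 3.51 and 2.75 in single and 8.27, 3.90 and 7.24 in PBS libraries. Single 1 was the highest of its group, and the change was larger without it: 2.89 ± 0.416 with all libraries, at an edgeR adjusted p of 0.00779, and 3.54 without single 1, at 0.00601. Areg, the tissue repair factor amphiregulin, was low throughout, at 5.28, 5.93, 3.80 and 5.03 CPM after repeated and 2.17, 1.31 and 1.38 after single FP, a log2 change of 1.62 ± 0.241 with all libraries, at an edgeR adjusted p of 0.00886, and 1.90 without single 1, at 0.0132. The transcription factor Gata3 was the most abundant of these, at 366, 394, 307 and 377 against 180.1, 216 and 185 CPM, and its log2 change of 0.90 ± 0.134 (edgeR adjusted p = 0.00886) was the smallest of them. It was 0.85 without single 1 (adjusted p = 0.0431).

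Several effector genes did not pass. Prdm1, the gene of the transcriptional repressor Blimp-1, was at 75.7, 69.6, 60.3 and 69.7 CPM in repeated and 54.8, 42.5 and 39.97 in single libraries, without overlap (log2 0.59, adjusted p = 0.061). Icos, a costimulatory receptor, was at 109, 74.0, 77.0 and 79.3 against 70.0, 63.8 and 51.1 CPM (log2 0.46, adjusted p = 0.23). Tigit, an inhibitory receptor, was at 231, 242, 140.1 and 191 against 104, 72.1 and 56.8 CPM, again without overlap (log2 1.38, adjusted p = 0.0239). Batf, Irf4, Cd44 and Rora overlapped between the groups. Tigit and the last 4 were picked after their values were seen.

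**Figure D3:**
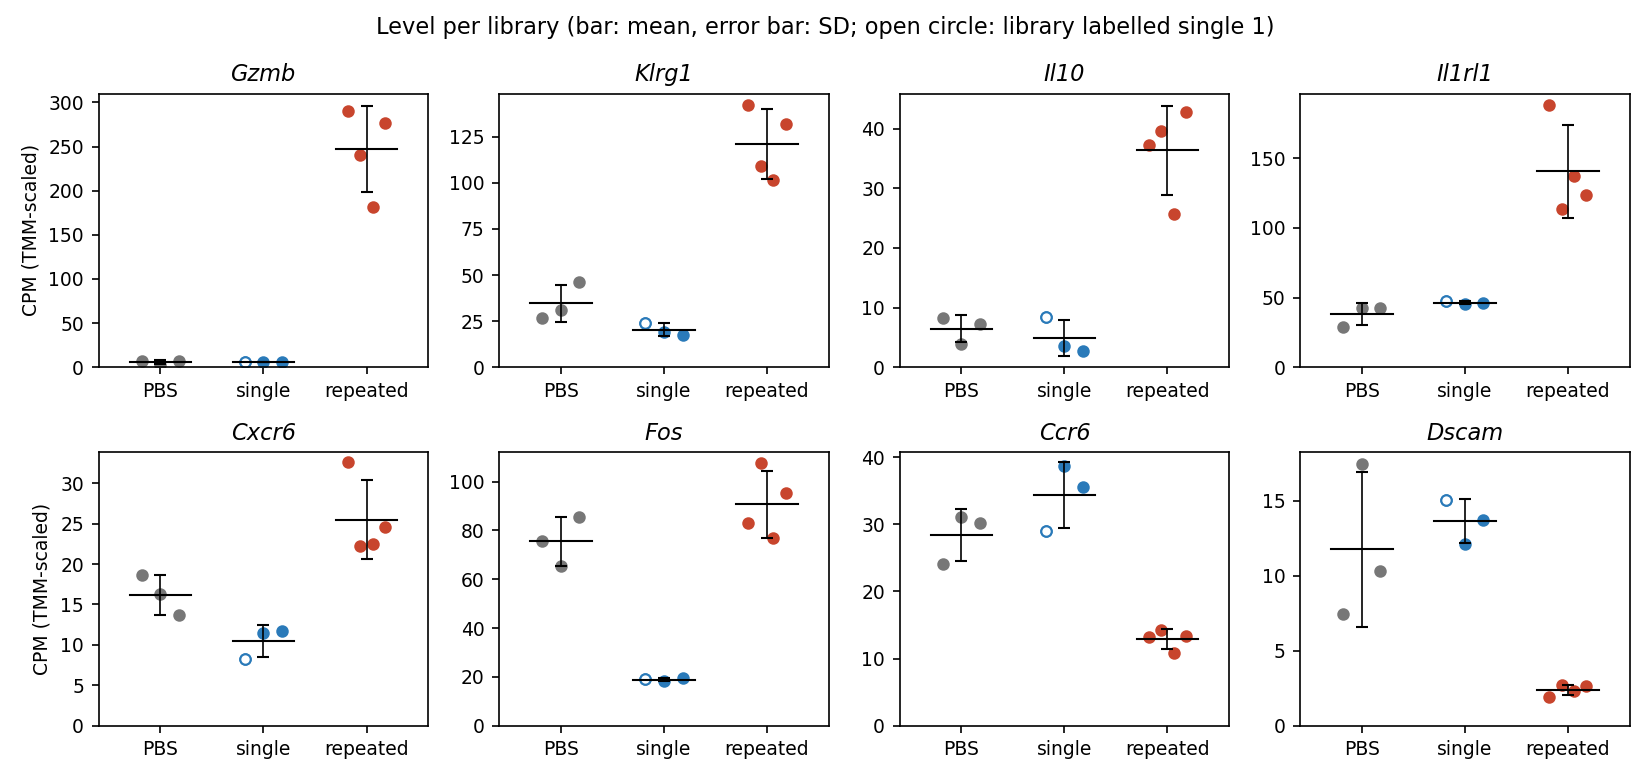
Level of 8 genes in CPM in each PBS, single and repeated library, with the mean (bar) and SD (error bar) of each group and the library labelled single 1 as an open circle. In each of the 8 panels the repeated libraries do not overlap the single ones, and in the Fos panel the single libraries stand apart from both other groups.

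S100, annexin and galectin genes, which encode calcium-binding, membrane-binding and sugar-binding proteins often high in activated and migrating T cells, shifted as a list by a median of 0.95 (1.03 without single 1). Of 17 measured, 2 rose, none fell, and 13 were higher without overlap between the groups. Over all genes, 0.44% were called higher and 8.24% were higher without overlap. The called genes, S100a6 and S100a4, are also on the effector Treg list, so the 2 lists are not separate here. Without single 1 none of the 17 was called at an adjusted p of 0.01 by edgeR, and both S100 genes below stayed under 0.05. S100a6 was at 138, 125, 73.5 and 114 CPM in repeated, 32.9, 21.1 and 21.6 in single and 32.2, 26.1 and 46.0 in PBS libraries, a log2 change of 2.16 ± 0.280 with all libraries, at an edgeR adjusted p of 0.00499, and 2.40 without single 1, at 0.0142. S100a4 stood at 34.6, 29.5, 18.9 and 24.0 against 10.6, 7.23 and 7.91 CPM, with 1.64 ± 0.235 with all libraries, at an edgeR adjusted p of 0.00776, and 1.82 without single 1, at 0.0204. In both genes repeated 3 was the lowest of its group, and the groups stayed apart.

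The galectins Lgals3 and Lgals1 missed the threshold. Lgals3 was at 16.5, 13.5, 8.70 and 14.8 against 4.47, 3.92 and 3.68 CPM (log2 1.73, adjusted p = 0.0106). Lgals1 was at 169, 153, 92.5 and 139.9 against 65.3, 44.1 and 48.4 CPM (log2 1.40, adjusted p = 0.0185). Neither overlapped between the groups.

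Chemokine receptors moved in both directions: of 28 chemokine receptor and integrin genes measured, 2 rose, 1 fell and 25 did not pass (median 0.33). Without single 1, 1 of the 28 was called higher and 1 lower. Over all genes, 0.44% were called higher and 0.145% lower, or 0.078% and 0.0279% without single 1. Cxcr6, the receptor of Cxcl16, measured 32.6, 22.3, 22.5 and 24.5 against 8.24, 11.5 and 11.7 CPM, and its log2 change was 1.28 ± 0.192 with all libraries, at an edgeR adjusted p of 0.00906, and 1.14 without single 1, at 0.0389. PBS libraries lay between, at 18.6, 16.3 and 13.6 CPM.

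Ccr6, the receptor of Ccl20 (chr17:8236043-8257141, plus strand), fell. It was at 13.2, 14.3, 10.8 and 13.3 CPM in repeated, 29.0, 38.7 and 35.6 in single and 24.0, 31.1 and 30.3 in PBS libraries, so every repeated library was below every other. The log2 change was -1.41 ± 0.147 with all libraries, at an edgeR adjusted p of 0.00208, and -1.52 without single 1, at 0.00496. The collagen-binding integrin chain Itga1 was low and uncalled, at 3.91, 1.77, 4.00 and 1.54 against 0.536, 0.464 and 0.544 CPM (log2 2.43, adjusted p = 0.0199). The homing genes Ccr7 (log2 -0.18, interval -0.58 to 0.23) and S1pr1 (0.35, 0.042 to 0.66) did not pass.

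Ccl5, an inflammatory chemokine, rose too: 36.4, 53.7, 27.0 and 37.0 CPM in repeated, 8.04, 6.91 and 6.53 in single and 11.2, 6.08 and 12.6 in PBS libraries (log2 2.43 ± 0.292 with all libraries, at an edgeR adjusted p of 0.00368, and 2.52 without single 1, at 0.0192). Ccl5 also stands on the list of CD8 T and NK cell markers, of which 7 of 12 were measured. The summed level of these 7 was 51.1 to 109 CPM in repeated, 26.2 to 33.1 in single and 26.9 to 42.3 in PBS libraries. Among the defining genes, Cd8a was at 0.633 to 1.42 CPM in repeated against 1.28 to 2.63 in single libraries, and Klrb1c at 0.867 to 1.90 against 0.929 to 2.52. Ccl5 and Nkg7 were the members that carried the higher sum.

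Fos and Fosb, subunits of AP-1 that are induced within minutes of many stimuli, separated the single libraries from both other groups. Fos (chr12:85473890-85477273, plus strand) was at 82.9, 108, 76.7 and 95.2 CPM after repeated FP, 18.9, 18.2 and 19.3 after single FP and 75.8, 65.5 and 85.6 after PBS. Its log2 change was 2.27 ± 0.150 with all libraries, at an edgeR adjusted p of 0.000235, and 2.27 without single 1, at 0.00264. Against PBS, Fos changed by 0.26 after repeated FP (adjusted p = 0.298) and by -2.005 after single FP (adjusted p = 0.000998). Fosb measured 39.7, 45.0, 31.5 and 40.5 CPM in repeated, 8.56, 5.54 and 5.99 in single and 77.5, 67.6 and 91.1 in PBS libraries, so the repeated libraries lay between the other groups (log2 2.55 ± 0.198 with all libraries, at an edgeR adjusted p of 0.000473, and 2.76 without single 1, at 0.00261). The pair were the only 2 genes called between single FP and PBS (0.0111% of genes), and both were lower, with 0 (0%) called higher. Without single 1 that comparison had 31 calls, 27 of them higher and 4 lower after single FP.

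Of 32 immediate early and handling stress genes, Fos and Fosb rose, beside 0.44% of all genes. None fell and 30 did not pass (median 0.53). Without overlap, 13 were higher and 2 lower, against 8.24% and 8.59% of all genes. Fos and Fosb were also called without single 1, where the median of the list was 0.79. There 22 were higher and 3 lower without overlap, against 17.8% and 16.9% of all genes. Jun was at 105, 137, 82.7 and 106 CPM after repeated and 62.9, 56.4 and 61.0 after single FP, without overlap (log2 0.84, adjusted p = 0.0315). Klf4 was at 2.70, 3.02, 2.00 and 2.21 against 1.30, 1.10 and 1.06 CPM (log2 1.10, adjusted p = 0.0233). These genes also respond to tissue handling. In the independent tables the log2 change of Fos with FP against PBS was 0.27 at 1.5 h and 0.65 at 168 h, neither past the threshold. Whether sample handling differed between the groups of the restimulation table was not tested.

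The remaining largest increases were in genes of low to moderate level. Nckap5 was at 26.1, 8.70, 26.7 and 19.8 CPM after repeated and 0.715, 1.22 and 1.06 after single FP (log2 4.35 ± 0.433 with all libraries, at an edgeR adjusted p of 0.00181, and 4.15 without single 1, at 0.0123). Frmd5, a FERM domain protein, was at 15.9, 13.2, 16.1 and 15.1 against 1.92, 2.12 and 3.46 CPM (log2 2.597 ± 0.231 with all libraries, at an edgeR adjusted p of 0.000988, and 2.44 without single 1, at 0.00581). Arap3, a GTPase-activating protein, was at 11.3, 14.9, 8.70 and 13.6 against 2.52, 1.48 and 2.37 CPM (log2 2.51 ± 0.275 with all libraries, at an edgeR adjusted p of 0.00277, and 2.66 without single 1, at 0.0123). In all 3 the lowest repeated library was above the highest single and PBS library.

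Ptafr, the receptor of platelet-activating factor, was at 14.3, 15.4, 8.57 and 14.2 CPM against 2.64, 3.367 and 2.91 (log2 2.14 ± 0.276 with all libraries, at an edgeR adjusted p of 0.0049, and 2.062 without single 1, at 0.0312). Srgap3, another GTPase-activating protein, was at 12.9, 14.1, 11.2 and 15.9 against 3.40, 3.40 and 3.17 (log2 2.03 ± 0.193 with all libraries, at an edgeR adjusted p of 0.00158, and 2.04 without single 1, at 0.01). Car5b, a mitochondrial carbonic anhydrase, rose by 1.79 and Plxdc1, a plexin domain protein, by 1.75 on the log2 scale (edgeR adjusted p = 0.00307 and 0.00821). Without single 1 these 2 changes were 1.85 and 1.98 (adjusted p = 0.0161 and 0.0183). Members of the interferon-induced transmembrane family passed from a list of 43 interferon-stimulated genes: Ifitm2 at 4.93, 5.03, 3.27 and 4.33 against 1.43, 1.71 and 1.09 CPM (log2 1.63, or 1.64 without single 1, at an adjusted p of 0.0346) and Ifitm1 at 0.800 to 1.10 against 0.0641 to 0.201 CPM (log2 2.71, or 3.12, at 0.0283). The list itself had a median of -0.092 (-0.019 without single 1), with 41 genes not called. Over all genes, 0.44% were called higher.

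Of the 26 genes called lower, 8 met the conditions for description (a mean of at least 5 CPM over the 7 libraries and a symbol that is not a predicted or clone name). Dscam, a cell adhesion molecule of the immunoglobulin superfamily (chr16:96590840-97170752, minus strand), was at 1.93, 2.69, 2.3004 and 2.63 CPM in repeated, 15.1, 12.131 and 13.7 in single and 7.47, 17.5 and 10.3 in PBS libraries (log2 -2.51 ± 0.267 with all libraries, at an edgeR adjusted p of 0.00234, and -2.43 without single 1, at 0.0123). Ryr2, a calcium release channel, was at 4.07, 3.67, 5.67 and 4.33 against 16.9, 13.6 and 16.7 CPM, with 15.2, 19.7 and 19.7 in PBS (log2 -1.83 ± 0.178 with all libraries, at an edgeR adjusted p of 0.00174, and -1.77 without single 1, at 0.00891). Every repeated library was below every single and PBS library in both genes.

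Sema6d, a semaphorin, was at 5.12, 3.78, 3.87 and 4.80 CPM after repeated and 14.7, 14.2 and 16.1 after single FP (log2 -1.77 ± 0.221 with all libraries, at an edgeR adjusted p of 0.00428, and -1.78 without single 1, at 0.0189). Itga9, an integrin alpha chain, was at 4.65, 3.48, 3.17 and 4.75 against 12.5, 10.9 and 11.0 CPM (log2 -1.51 ± 0.216 with all libraries, at an edgeR adjusted p of 0.00776, and -1.45 without single 1, at 0.0358). Smaller changes were seen in Tgfbr3, a TGF-beta coreceptor (log2 -1.05), Gucy1a1, a subunit of soluble guanylate cyclase (-0.97), and St8sia1, the GD3 ganglioside synthase (-0.80). St8sia1 was the most abundant of the 8, at 37.6, 35.7, 40.8 and 40.1 against 71.9, 59.0 and 70.7 CPM. All 3 passed with all libraries, with adjusted p = 0.00342, 0.00726 and 0.00493, and had adjusted p = 0.0164, 0.0329 and 0.0255 without single 1.

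The uncalled decreases with the smallest p were Kcna2 (-1.67), Cfp (-1.34), Ighd (-1.33), Sspo (-1.28) and Adgre4 (-2.65), with adjusted p from 0.0102 to 0.0145. Kcna2 is a potassium channel, Cfp encodes the complement factor properdin, Ighd the constant region of IgD, and Adgre4 a macrophage surface receptor. Cfp was at 6.47, 7.23, 6.00 and 10.8 CPM in repeated and 21.2, 17.2 and 19.5 in single libraries. Adgre4 was at 2.45, 0.571, 1.27 and 1.89 against 8.49, 9.00 and 11.7 CPM.

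Markers of macrophages and other myeloid cells were lower in the same libraries. Red pulp macrophage genes, 11 measured, summed to 76.8 to 175 CPM in repeated, 314 to 344 in single and 188 to 331 in PBS libraries. None was called, and 10 of the 11 were lower in every repeated library than in every single library. The median log2 change was -1.49 (-1.42 without single 1). Over all genes, 8.59% were lower without overlap (16.9% without single 1), and 0.145% were called lower. Myeloid genes, 7 measured, summed to 41.5 to 68.2, 119 to 138 and 90.2 to 133 CPM, with 6 lower without overlap. The 1 called was Cd14, the lipopolysaccharide coreceptor, at 0.661, 0.489, 0.333 and 0.792 against 3.91, 3.02 and 1.86 CPM (log2 -2.35 ± 0.337 with all libraries, at an edgeR adjusted p of 0.00779, and -2.08 without single 1, at 0.0358). Csf1r, the macrophage growth factor receptor, was at 21.6, 13.8, 9.60 and 25.0 against 54.5, 49.2 and 51.7 CPM and did not pass (adjusted p = 0.0383). Other genes called lower included Ly86 and Slc11a1, which macrophages express, and Ighj1 and Ighj2, joining segments of the immunoglobulin heavy chain; these 4 were picked after their values were seen. In bulk RNA, fewer cells of a type and less RNA per cell cannot be told apart, and the part of these markers in the lower genes was not tested.

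B and plasma cell markers, 11 measured, summed to 337 to 518 CPM in repeated, 364 to 566 in single and 452 to 546 in PBS libraries, with a median change of -0.44 and none called. T cell and Treg markers, 10 measured, summed to 6104 to 7106, 4738 to 5992 and 4630.4 to 4874 CPM, with none called. Over all genes, 0.585% were called. Erythroid and platelet genes summed to 11.3 to 12.8 CPM in repeated and 9.88 to 20.9 in single libraries.

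**Figure D4:**
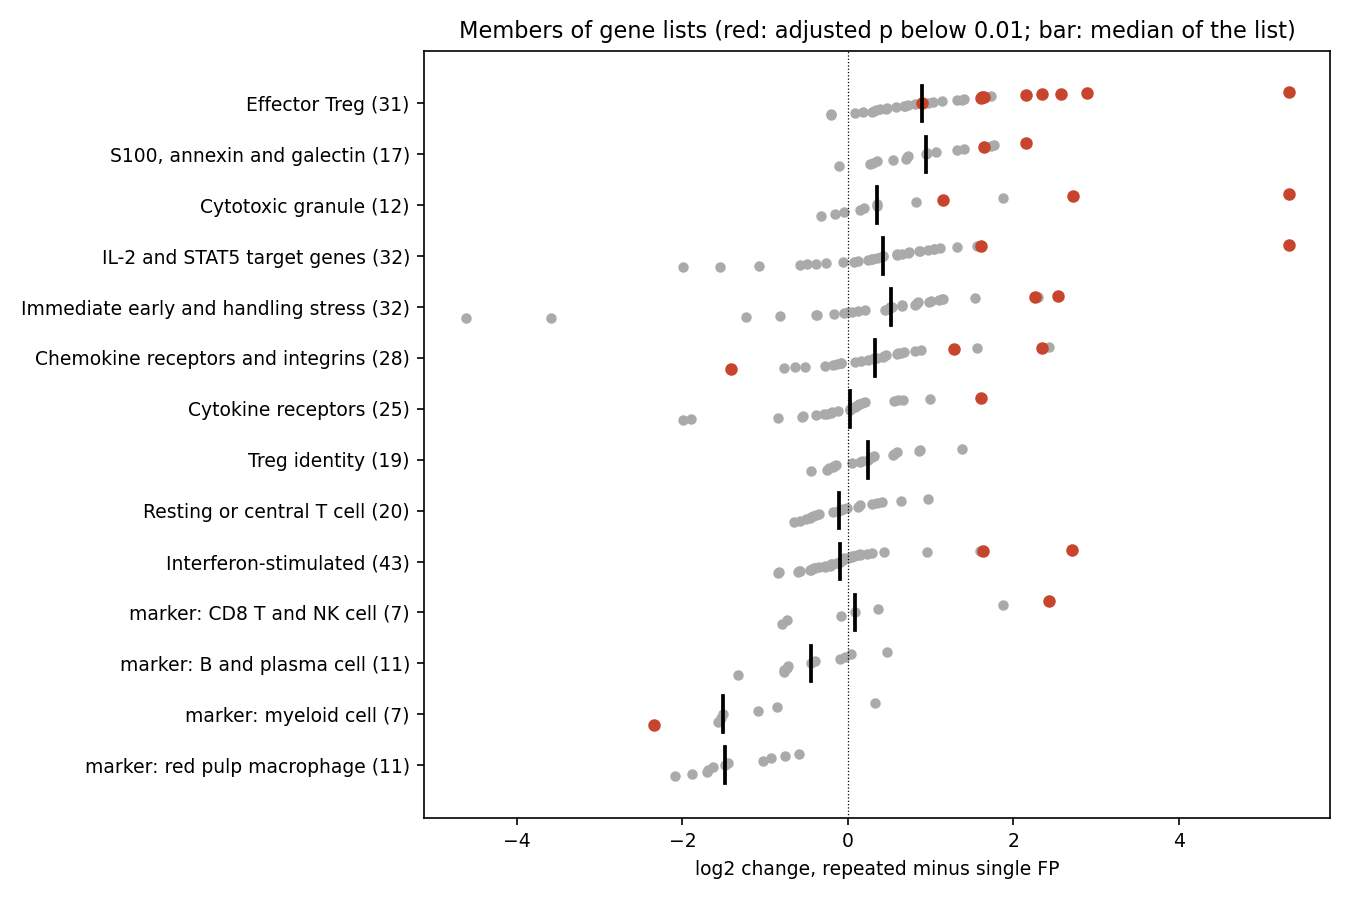
Log2 change, repeated minus single FP, of each measured member of 14 gene lists (number of members in brackets), with called genes in red and the list median as a bar. Effector Treg genes and S100, annexin and galectin genes have medians of 0.90 and 0.95, and red pulp macrophage markers one of -1.49.

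Most of the 16 acute IL-2 target genes stood above PBS after both schedules, apart from the library labelled single 1. Each repeated library exceeded every PBS library in 14 or 15 of them. Myb was an exception in repeated 1, 2 and 4, which lay within its PBS range. Il2ra was at 1756, 1543, 1818 and 1532 CPM after repeated FP, 566, 1785 and 1708 in single 1 to 3 and 639, 569 and 593 after PBS. With all libraries the log2 difference between repeated and single was 0.30 (95% interval -0.40 to 1.00). Without single 1 it was -0.071 (-0.36 to 0.22), beside 1.54 for single FP against PBS. Il2ra was one of the target genes that set single 1 apart, so the interval without that library cannot exclude a difference. Il2rb was at 1811, 2259.5, 1508 and 1927 against 1132, 1474 and 1389 CPM, with 0.39 (-0.043 to 0.82) without single 1. Neither receptor chain passed the test.

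Among feedback inhibitors, Socs2 was at 168, 188, 165 and 174 CPM after repeated FP, 35.5, 114 and 117 in single 1 to 3 and 41.4, 35.1 and 40.8 after PBS. Every repeated library was above single 2 and 3, with a log2 difference of 0.59 (0.32 to 0.87) without single 1 and an adjusted p of 0.0562. Socs1 was at 182, 234, 143 and 161 against 60.4, 139 and 125 CPM (0.45, -0.028 to 0.92, without single 1). Cish was at 536, 729.9, 500.1 and 576 against 169.7, 529.6 and 464 CPM (0.24, -0.18 to 0.65). None of the 3 passed with or without single 1.

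The kinase gene Pim1 was at 680.0, 941, 569.9 and 729.6 CPM in repeated and 268, 392 and 403 in single libraries, without overlap (log2 1.04, adjusted p = 0.0312; 0.88, 0.084 without single 1). Myc, a growth regulator, was at 285, 379, 288 and 301 against 127, 377 and 356 CPM, and Lrrc32, which encodes the TGF-beta docking receptor GARP, at 962, 1335, 909 and 1064 against 252, 986 and 889.6 CPM. Single 1 was the lowest of the 7 libraries in both, and the repeated libraries overlapped single 2 and 3. Bcl2, a survival gene, was at 332, 237, 526 and 303 against 304, 601 and 659 CPM. The 4 repeated libraries were below single 2 and 3 there, and single 1 fell among them (log2 -0.85, adjusted p = 0.152 without single 1).

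The cytokine gene Lif was at 19.5, 27.7, 21.6 and 22.1 CPM after repeated and 4.69, 29.8 and 21.2 after single FP, and Lta, which encodes lymphotoxin alpha, at 51.9, 78.6, 58.8 and 58.3 against 22.9, 128 and 111 CPM. The repeated libraries were below single 2 and 3 in Lta (log2 -0.95, interval -1.38 to -0.52, adjusted p = 0.055 without single 1). Without single 1, 2 genes outside the 105 were called, both lower after repeated FP, and they are given here after their values were seen. Myb, a transcription factor of progenitor cells, was at 39.1, 35.8, 60.6 and 38.0 CPM against 28.4, 188 and 162 and 39.3, 30.4 and 31.7 in PBS (log2 -2.02, adjusted p = 0.00606). Rragd, a Rag GTPase that acts upstream of mTORC1, was at 37.7, 36.7, 35.6 and 34.9 against 31.2, 103 and 92.6, with 22.3, 24.1 and 27.4 in PBS (log2 -1.43, adjusted p = 0.00261). With single 1 kept, their adjusted p was 0.129 and 0.108. At 1.5 h in the independent libraries, FP had raised Myb by 2.69 and Rragd by 1.96 on the log2 scale, and at 168 h Myb was lower with FP, by -1.55.

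Over the whole list of 32 IL-2 and STAT5 target genes, 2 rose, beside 0.44% of all genes. None fell and 30 did not pass. The 2 were Gzmb and Il1rl1, and both are also effector Treg genes. Without single 1, Gzmb was called higher and Myb lower, and Il1rl1 was not called. The median change was 0.43 (0.38 without single 1). Tnfrsf9 (4-1BB) and Tnfrsf18 (GITR), receptors of the TNF family, were higher without overlap and did not pass: Tnfrsf9 was at 272, 268, 177 and 227 against 129.8, 121 and 91.8 CPM (log2 1.05, adjusted p = 0.0243). Tnfrsf18 was at 218, 241, 161 and 203 against 95.9, 128 and 112 CPM (log2 0.88, adjusted p = 0.0277).

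Most gene lists held no call: of 26 beside the markers, 8 had a called member and 18 had none. Over all genes, 0.585% were called in either direction, so a list of this size may hold none at that share. Treg identity genes, 19 measured, had a median change of 0.25 (0.16 without single 1), with Ctla4 at 136 to 144 against 112 to 128 CPM and Ikzf2 at 1301, 426, 1513 and 645 against 872, 1185 and 1211 CPM. Ikzf2, which encodes Helios, was lowest in repeated 2 and 4, the libraries low in mitochondrial RNA. Resting or central T cell genes, 20 measured, had a median of -0.10. Tcf7, which encodes the T cell factor TCF1, was at 386, 478, 278 and 406 against 581, 285 and 305 CPM, and the IL-7 receptor gene Il7r at 295, 83.4, 232 and 110.2 against 259, 191 and 256, with overlap in both.

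No proliferation gene of the lists was called, beside 0.585% of all genes. The medians were -0.061 over 44 DNA replication genes, -0.18 over 45 G2 and mitosis genes and 0.24 over 49 histone genes. Near-identical copies of histone genes share reads. Without single 1 these 3 medians were 0.046, -0.11 and 0.47, so that of the DNA replication genes turned sign. Mki67, a proliferation marker, varied within the groups, at 62.2, 12.7, 63.4 and 23.04 CPM in repeated and 19.1, 44.3 and 49.6 in single libraries (interval of the log2 change -1.27 to 1.47). The medians of ribosomal protein (0.29), glycolysis (0.32), oxidative phosphorylation (0.32) and cholesterol synthesis genes (0.25) were above that of all genes, with none called. Without single 1 they were 0.40, 0.42, 0.39 and 0.22. Summed levels of ribosomal protein, glycolysis and oxidative phosphorylation genes overlapped between repeated and single libraries, and those of cholesterol synthesis genes did not.

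The series also followed FP against PBS from 1.5 h to 168 h after injection in libraries that the present comparison does not use, 4 of FP at each time and 4 (1.5 h and 16 h) or 3 (72 h and 168 h) of PBS. Genes that differed between repeated and single FP were seen there most often at 72 h. Their share of the genes called with FP was largest at 168 h, when the fewest genes were called. Of the 79 higher genes, 6 were higher with FP at 1.5 h (7.59%), 21 at 16 h (26.6%), 47 at 72 h (59.5%) and 12 at 168 h (15.2%). These are 0.822%, 0.834%, 1.46% and 34.3% of the genes higher with FP at those times. The background of genes called higher was 4.39%, 14.4%, 17.3% and 0.201% of those tested. The 12 at 168 h are thus out of only 35 genes. Libraries of FP and PBS at 4 h also exist in the series and were not used, because some of their labels contradict each other.

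Of the 26 lower genes, 1 was lower with FP at 1.5 h (3.85%), 8 at 16 h (30.8%), 23 at 72 h (88.5%) and 14 at 168 h (53.8%). They make up 0.263%, 0.32%, 0.946% and 8% of the genes lower at those times, and the background was 2.28%, 14.3%, 13.1% and 1.01%. None of the 26 was higher with FP at any of the 4 times used, while 1, 7 and 2 of the 79 higher genes were lower at 1.5, 16 and 72 h.

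Single genes are given for the same times. The log2 change of Gzmb with FP against PBS was 0.56 at 1.5 h, 4.28 at 16 h, 8.01 at 72 h and 5.78 at 168 h, the last 3 past the threshold. Klrg1 changed by -0.25, -0.76, 1.51 and 2.29, where the fall at 16 h and both later rises were called. Il10 changed by -0.94, -0.86, 1.23 and 2.31, the last 2 called. Il1rl1 was called at 72 h (1.96) and 168 h (2.03). Ccr6 was lower at 16 h (-0.81), 72 h (-1.504) and 168 h (-1.27). Ccl5 was lower at 16 h (-1.41) and 72 h (-1.04) and higher at 168 h (1.82).

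Read the other way, the 35 genes higher with FP at 168 h had a median log2 change of 1.03 between repeated and single FP (1.18 without single 1), and 12 of them (34.3%) were called higher, against 0.44% of all genes. Relative to the PBS mean they stood at 0.85 to 1.03 in the repeated and -0.25 to 0.031 in the single libraries, as medians per library. The 164 genes lower with FP at 168 h and measured here had a median of -1.40 (-1.35). Of them 14 were called lower (8.54%), against 0.145% of all genes. They stood at -1.08 to -0.56 in the repeated and 0.19 to 0.30 in the single libraries. Macrophage and myeloid markers such as Csf1r (-3.50) and Cd14 (-4.65) are among the genes lower at 168 h.

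The 728 genes higher with FP at 1.5 h and measured here had a median change of 0.061 between repeated and single FP, and -0.055 without single 1. Among these genes 6 were called higher (0.824%) and none lower, beside 0.44% and 0.145% of all genes. Their median against PBS was 0.34 after repeated FP and 0.43 after single FP without single 1. By library they stood at 0.26 to 0.47 above the PBS mean in the repeated libraries, 0.43 and 0.39 in single 2 and 3, and 0.032 in single 1.

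**Figure D5:**
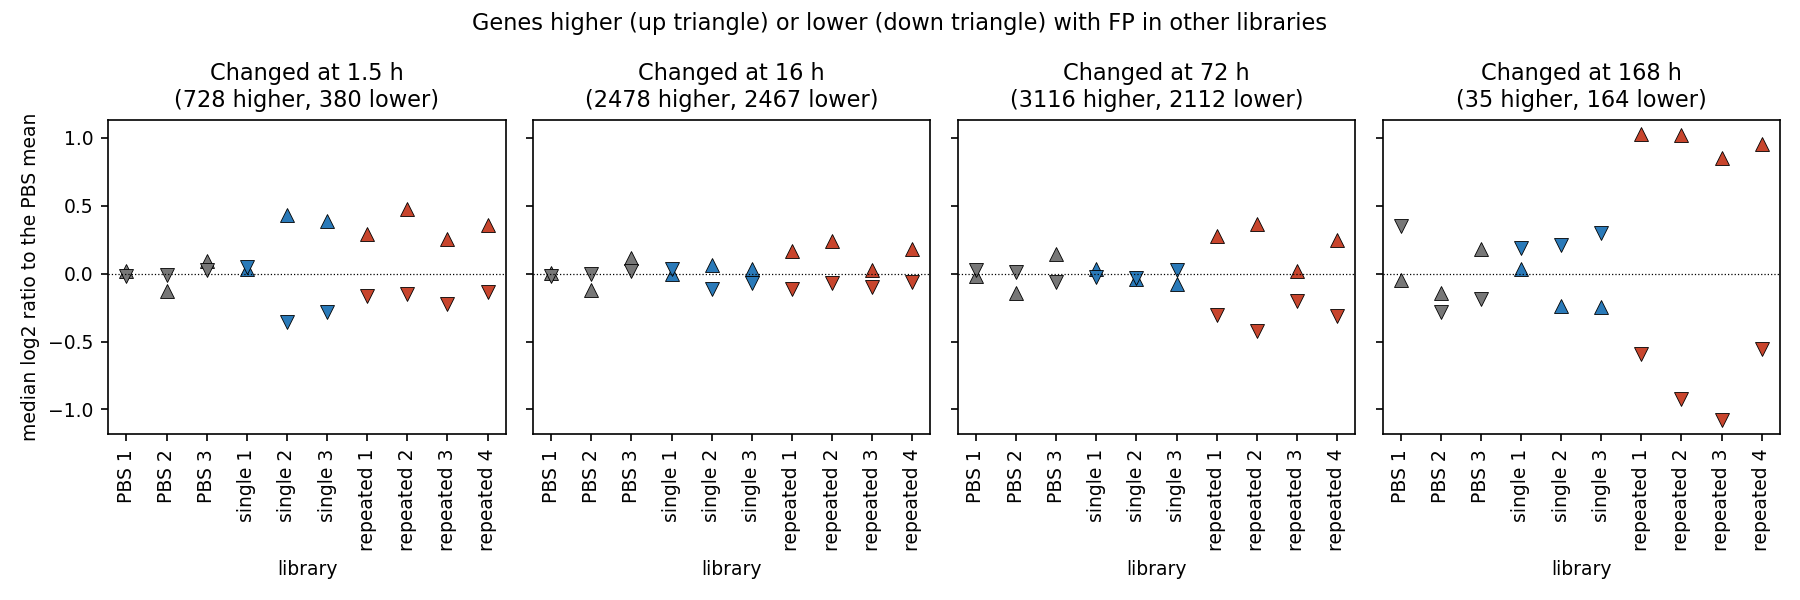
Median log2 ratio to the PBS mean, per restimulation library, of genes that were higher (up triangles) or lower (down triangles) with FP than with PBS at 1.5, 16, 72 and 168 h in other libraries. In the 168 h panel the repeated libraries lie at 0.85 to 1.03 and -1.08 to -0.56, apart from all single and PBS libraries, and in the 1.5 h panel single 1 lies with PBS.

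Against PBS, 113 genes were called after repeated FP (0.629%), 67 higher (0.373%) and 46 lower (0.256%). Of the 79 genes higher than after single FP, 73 were higher in every repeated library than in every PBS library, and the 6 exceptions were Fos, Fosb, Sv2c, Gldc, Gm37352 and Gm47230. All 26 lower genes were lower in every repeated library than in every PBS library. These values use the same repeated libraries as the main comparison and add no independent evidence for it.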

How the data were processed

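RNA was measured in sorted splenic Tregs with ribosomal RNA removed (KAPA RNA HyperPrep with RiboErase, from 25 ng of RNA, per the labels' protocols). Per the submitters' processing notes, the authors aligned reads to GRCm38 with STAR 2.5.0 and counted them with featureCounts 1.5.0 over GENCODE M13. The deposited values are raw counts per gene, and the deposited table holds genes above 0.5 CPM in at least 3 columns. The strand setting of counting was not given in the sources used here, so antisense and overlapping genes are uncertain.

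Counts were scaled by TMM and filtered with filterByExpr. The 3 restimulation groups, 10 libraries of 28965494 to 46108114 reads, were fitted together with edgeR 4.0.16 (quasi-likelihood F test, R 4.3.3), with a call at a Benjamini-Hochberg adjusted p of 0.01. Standard errors are the log2 change over the root of F, and 95% intervals use the total degrees of freedom. The other time tables were fitted separately in the same way, 2 runs of a library summed at 72 h. DESeq2 1.42.0, limma 3.58.1 voom with quality weights, RLE scaling, no filter, 2-group fits, a replicate block, an adjusted p of 0.05 and leaving out each library were alternatives. The fit was tested on simulated data.

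Genes were named by rule: the 15 largest changes each way among calls that averaged 5 CPM or more, did not overlap between the groups and had no predicted or clone name, up to 4 members of each list with a call, and a panel of IL-2, Treg and resting T cell genes. Where fewer decreases qualified, the 5 uncalled ones with the smallest p were added. The libraries, lists and rules were chosen with earlier results of these data known. Symbols and coordinates came from GENCODE M21 (GRCm38), and 17910 gene identifiers of those tested had a symbol. Promoter windows were RefSeq's. Some genes that met the rule are not reported here.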

Additional observations from a re-analysis of the deposited data

Results flagged for a closer look

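In 2 of the 74 groups of 4 repeated libraries examined, 1 library stood far from the other 3, by a gap that exceeds Dixon's 95% critical value. Chance marks about 1 in 20 such groups. Myc was at 285, 379, 288 and 301 CPM in repeated 1 to 4, and the gap below repeated 2, at 379 CPM, was 0.833 of the range. Icos was at 109, 74.0, 77.0 and 79.3 CPM, and the gap below repeated 1, at 109 CPM, was 0.849 of the range. Neither gene was called between repeated and single FP, and the causes were not tested.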

How the results depend on the processing

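Counts of calls moved more than directions did. Between repeated and single FP, repeated FP and PBS, single FP and PBS, and for members of the lists, the main counts were 105, 113, 2 and 17. RLE scaling and no filter kept 105 calls in the first, 103 and 105 of them shared. DESeq2 called 547, 736, 143 and 61. Limma voom with quality weights called 5766, 3674, 933 and 307, with a weight of 0.373 for single 1 and 3.85 for single 2. Fitting only the groups compared gave 43, 59 and, for the lists, 9. An adjusted p of 0.05 gave 502, 779, 60 and 55, and the same without single 1 gave 223, 846, 152 and 34. Removing repeated 2, repeated 4 and PBS 3 gave 14, 3, 2 and 8. These last 2 alternatives were chosen after seeing the data. Leaving out each library in turn gave 4 to 131, 3 to 169, 1 to 31 and, for the lists, 4 to 21 calls. At the other times, DESeq2 called 1669 against 1110 genes at 1.5 h and 520 against 210 at 168 h. The 30 called genes of the naming rule kept their direction in every alternative.

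With the replicate number as a block there were 0 calls in each of the 3 comparisons and in the lists (edgeR quasi-likelihood test, with 1781, 2066 and 1035 genes at an unadjusted p under 0.05), and Tcf7 turned to 0.010 (log2). Deviations of same-numbered libraries correlated at -0.191, -0.383 and 0.562, so the numbers were not taken to pair the samples, and not every library correlated best with its own number.

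Directions turned only in uncalled genes. Under voom weights the log2 changes were Foxp3 -0.080, Il2ra -0.064, Myc -0.18, Lif -0.082, Tcf7 0.40 and Mki67 -0.76. Without single 1 they were Foxp3 -0.11, Il2ra -0.071, Myc -0.23, Lif -0.17, Tcf7 0.39 and Mki67 -0.22. Without repeated 2, repeated 4 and PBS 3 they were Foxp3 -0.11, Ikzf2 0.37 and Il7r 0.16. Ranges over single libraries left out were Foxp3 -0.11 to 0.17, Il2ra -0.071 to 0.55, Ikzf2 -0.47 to 0.082, Myc -0.23 to 0.38, Lif -0.17 to 0.82, Tcf7 -0.20 to 0.39 and Mki67 -0.22 to 0.40. The causes were not tested. Depth limits genes near 1 CPM, where a library holds about 29 to 46 reads.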

Other observations

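Called genes outside the naming rule or the lists were looked at after their values were seen. The leukotriene B4 receptor Ltb4r1 was at 7.16, 4.87, 4.00 and 5.45 CPM after repeated and 0.514, 0.929 and 0.673 after single FP, with a log2 change of 2.93 (edgeR adjusted p = 0.00295; 2.74, 0.0164 without single 1). The histamine receptor Hrh4 was at 1.13, 1.22, 0.933 and 1.14 against 0.290, 0.348 and 0.256 CPM, with 1.88 (edgeR adjusted p = 0.00567; 1.86, 0.0316 without single 1). F2r, a thrombin receptor, was at 123, 133, 103 and 121 against 38.6, 47.3 and 47.8 CPM, with 1.43 (edgeR adjusted p = 0.00206; 1.33, 0.0123 without single 1). No library of the groups overlapped in these 3 genes.

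Further genes called higher are given in the same way. Epcam, an adhesion molecule, was at 39.7, 41.1, 25.6 and 40.4 CPM against 11.1, 14.05 and 14.2, and Icosl, the ligand of ICOS, at 26.9, 32.7, 23.1 and 26.7 against 10.6, 13.3 and 11.6. Their log2 changes were 1.49 (edgeR adjusted p = 0.00821; 1.38, 0.0422 without single 1) and 1.21 (edgeR adjusted p = 0.00487; 1.13, 0.0283 without single 1). Ehd4, an endocytic recycling protein, was at 32.1, 32.0, 24.4 and 32.5 against 10.5, 9.11 and 7.88 CPM, with 1.72 (edgeR adjusted p = 0.00181; 1.83, 0.00606 without single 1). Amotl1, an angiomotin family protein, was low in libraries without an earlier FP injection, at 0.313, 0.174 and 0.192 CPM in single and 0.310, 0.196 and 0.606 in PBS libraries, and stood at 9.61, 7.51, 6.73 and 9.86 CPM after repeated FP. With FP against PBS it changed by 5.91 at 72 h and 4.30 at 168 h (log2), the first past the threshold.

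The heat shock genes Hspa1a and Hspa1b differed between the groups without passing the test. Hspa1b was at 0.936, 2.18, 0.633 and 4.75 CPM in repeated, 50.05, 18.4 and 8.78 in single and 0.248, 0.613 and 1.33 in PBS libraries, highest in single 1, with a log2 change of -3.58 (edgeR adjusted p = 0.0404; -2.66, 0.119 without single 1). Hspa1a, a near-identical copy that shares reads with it, was at 10.7, 3.80 and 1.18 CPM in single libraries and at most 0.408 in repeated ones. Whether handling differed was not tested.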
